A study of Mus musculus with 12 samples.

Results

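Krüppel-like factors (KLFs) are zinc finger transcription factors, and 10 of their genes, *Klf2*, *Klf3*, *Klf4*, *Klf5*, *Klf6*, *Klf7*, *Klf9*, *Klf10*, *Klf13* and *Klf15*, were followed in W-20 cells exposed to PTH. The members were chosen by name with earlier results of these data known, so the number of them called describes these genes and is no test of the family. Each matched a single row of the 56980 rows of the gene matrix by its Ensembl identifier. *Klf15* had only 3 counts in all 12 libraries together, so 9 of the 10 members were among the 17691 genes tested. W-20 (W-20-17) cells are a mouse bone marrow stromal cell (BMSC) line, and bulk poly-A RNA-Seq was made from 3 libraries in each of 4 groups. W20_VEH and W20_PTH are unmodified (WT) cells after 2 hours with vehicle (PBS) or with 50 nM PTH. Y428F_VEH and Y428F_PTH are cells of a stable line that carries YAP with a tyrosine changed to phenylalanine (Y428F), treated in the same ways. The genotype field of the Y428F libraries reads WT and their titles read Y428F, so the groups rest on the titles. The study describes a stable line with this change alone and another that also carries S381A, each made from introduced Flag-tagged YAP with puromycin selection of clones. Its text on the RNA-Seq names cells with both changes and also speaks of the Y428F mutation alone, and a supplementary caption names Y428F cells. The titles give Y428F only. All libraries of Y428F come from a selected line and none from a line with introduced unmutated YAP or with S381A alone, so Y428F, S381A and other differences between the lines cannot be told apart. The study speaks in general of independent experiments, but neither its RNA-Seq methods nor the labels say how the 3 libraries of a group were made, so p-values measure the spread between these libraries, which may be technical.

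KLFs bind GC-rich and CACCC-type DNA through 3 zinc fingers at their carboxyl end and differ in the part of the protein that recruits cofactors. *Klf2*, *Klf4*, *Klf5*, *Klf6* and *Klf7* mostly act as activators that recruit acetyltransferases, *Klf3* is a repressor that recruits CtBP, and *Klf9*, *Klf10* and *Klf13* recruit the Sin3 corepressor. Several of them are rapidly induced by hormones, serum or flow. In stromal cells they are known for their part in the choice between the adipocyte and the osteoblast lineage, with *Klf4*, *Klf5*, *Klf9* and *Klf15* promoting adipogenesis and *Klf2*, *Klf3* and *Klf7* restraining it. PTH signals through a G protein–coupled receptor that raises cAMP and also activates phospholipase C. The study reports that PTH acts on YAP through phospholipase C, calcium and the kinase Src. The cAMP arm acts on genes through the factor CREB, which binds the cAMP response element (CRE).

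The promoter windows of the members are shown first. No motif was tested against the direction in which a member moved with PTH. RefSeq windows of 300 bases, 250 before and 50 after the gene start, were at hand for 8 of the 10 members, all but *Klf5* and *Klf10*. They come from a table on GRCm38.p6 and were placed in GRCm39 by a match of the whole sequence at 1 site. The *Klf13* window opens with the 250 bases below, at chr7:63588664-63588913 on the minus strand, which end at the gene start of both RefSeq and GENCODE. In the other 7 members the RefSeq start lies inside the GENCODE gene, 7 bases from its outermost start in *Klf6*, 53 in *Klf4*, 180 in *Klf2*, 403 in *Klf9*, 560 in *Klf15*, 960 in *Klf7* and 989 in *Klf3*, so the windows of the last 4 lie wholly within the GENCODE gene. Capitals mark TGACG, the half-site of the CRE.
Klf13 upstream: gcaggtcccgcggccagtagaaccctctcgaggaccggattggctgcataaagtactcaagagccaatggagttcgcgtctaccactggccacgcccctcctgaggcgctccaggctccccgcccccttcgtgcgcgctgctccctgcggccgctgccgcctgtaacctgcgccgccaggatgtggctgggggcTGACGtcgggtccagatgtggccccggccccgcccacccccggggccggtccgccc

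TGACG was searched on both strands and was found in 6 of the 8 windows, those of *Klf2*, *Klf3*, *Klf4*, *Klf9*, *Klf13* and *Klf15*, and not in those of *Klf6* and *Klf7*. It was present in 20.8% of all 32851 RefSeq windows. Windows of the members are rich in G and C, 58.3% to 76.7% against a median of 52.7% over all windows, and among the 10277 windows in the same range of GC content 31.8% held TGACG. The 30 bases around the match in the 5 expressed members are set out on the strand of the gene, with TGACG or its complement CGTCA in capitals. They lie at chr7:63588703-63588732 (minus strand) for *Klf13*, chr19:23118531-23118560 (plus) for *Klf9*, chr8:73072656-73072685 (plus) for *Klf2*, chr4:55532691-55532720 (minus) for *Klf4* and chr5:64960870-64960899 (plus) for *Klf3*.
Klf13: tgtggctgggggcTGACGtcgggtccagat
Klf9: ggggcctggattgTGACGtgatgggattct
Klf2: ctggtttgtTGACGccgtcgccatagggac
Klf4: gctgcctggctggCGTCAcggcctggcccc
Klf3: cgagcggcgccggCGTCAtgtgactgccca

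The match begins at position -56 from the RefSeq start in *Klf13*, -46 in *Klf9*, -241 in *Klf2*, -232 in *Klf4* and 20 in *Klf3*. Counted from the outermost GENCODE start, it begins at -56, 358, -61, -179 and 1009 in the same order, so whether a match is near a start depends on the annotation in *Klf2*, *Klf9* and *Klf3*. These 5 genes include members that rose and members that fell with PTH, as described below. The *Klf2* window also holds a match to the MEF2 consensus, at chr8:73072778-73072807 on the plus strand, where the capitals mark the consensus.
Klf2 MEF2: tataccgcggCTAAATTTAGgctgagcccg

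MEF2 factors are known to carry the ERK5 signal to *Klf2*. The MEF2 consensus was present in 1 of the 8 windows and in 0.557% of all windows (0.292% of those of like GC content). The GC box GGGCGG, a site of KLF and Sp factors, was in 7 of 8 windows (35.7% of all, 75.6% of those of like GC content), and CACCC, which KLFs bind, was in 6 of 8 (57.5% of all, 70.6% of those of like GC content). The AP-1 site TGANTCA was found in *Klf9* alone (7.81% of all windows, 3.69% of those of like GC content). The full CRE TGACGTCA, the TEAD site GGAATG, the CArG box of SRF and TATAAA were in none of the 8. Their shares were 1.79%, 14.7%, 1.63% and 13.6% of all windows and 3.28%, 10.4%, 1.15% and 3.73% of those of like GC content. TGACG is part of TGACGTCA, and GGGCGG and CACCC can share bases with neighbouring matches. No match says only that these letters are not in this window.

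**Figure D1:**
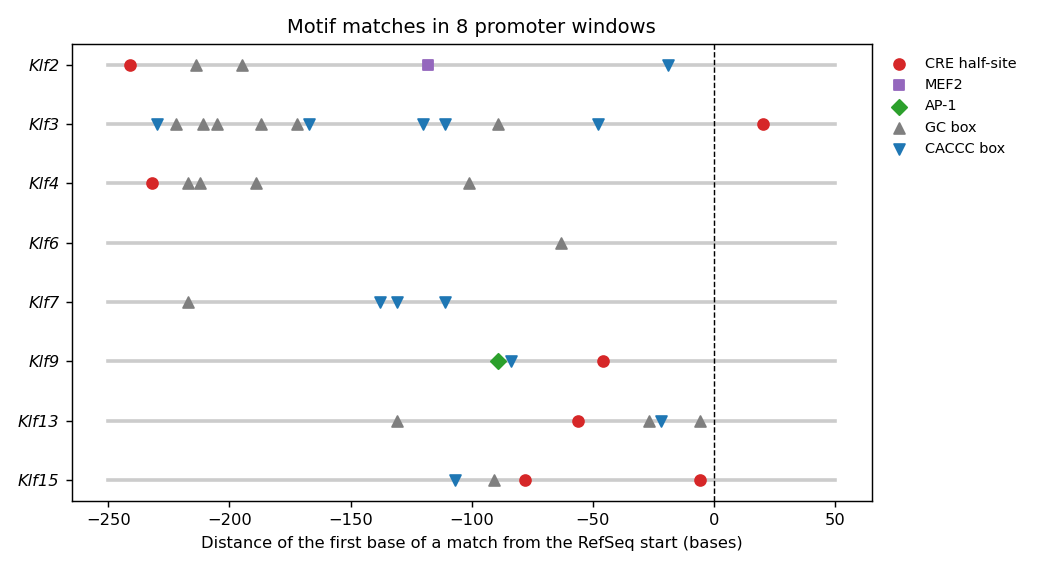
Positions of motif matches on either strand in the promoter windows of 8 Krüppel-like factor genes. The x axis is the distance in bases of the first base of a match from the RefSeq gene start (dashed line), each grey line is a window of 300 bases, and symbols mark the motif. From the RefSeq start the CRE half-site lies at -56 in *Klf13*, -46 in *Klf9*, -241 in *Klf2* and -232 in *Klf4*, whereas from the GENCODE start it lies at 358 in *Klf9* and -61 in *Klf2*, and it is not found in *Klf6* and *Klf7*.

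Library totals ranged from about 17127900 to 19057300 expected counts. Values are given in CPM, that is, expected counts divided by library sizes that edgeR's TMM factors had adjusted, as mean ± SD of 3 libraries, and CPM per kb of exon is used only to compare genes with each other. The BMSC label was checked first. Of 14 stromal markers, 11 had a mean of at least 1 CPM, led by *Col1a2*, a chain of type I collagen, with 12829 ± 932 CPM in W20_VEH and 7745 ± 285 CPM in Y428F_VEH. *Thy1* was at 0 in every library. *Nt5e* was at 0.038 ± 0.066 CPM in W20_VEH and 0.055 ± 0.055 in Y428F_VEH, and *Lepr* at 0.14 ± 0.11 and 1.03 ± 0.041. The 9 endothelial markers, a class of cells in which *Klf2* and *Klf4* are high, summed to 3.81 CPM in W20_VEH, 3.14 in W20_PTH, 10.4 in Y428F_VEH and 7.91 in Y428F_PTH, led by *Vwf* in WT and by *Cdh5* in Y428F cells, with *Cldn5* at 0 in every library. The 9 hematopoietic markers summed to 8.33, 7.26, 18.5 and 21.5 CPM in the same order, mostly *Cd14*. Mature adipocyte genes summed to 357, 376, 375 and 405 CPM, nearly all from *Lpl*, with *Adipoq*, *Cfd* and *Retn* at 0, and osteoblast genes to 769, 716, 492 and 502 CPM, nearly all from *Spp1*, with *Mepe* and *Sost* at 0. The receptor gene *Pth1r* had between 0 and 10 counts per library and was not called by edgeR's test in any of the 5 comparisons. Its estimates were imprecise at this depth, as with a log2 fold change of 1.45 (SE 0.85) for Y428F against WT cells with vehicle. *Yap1*, the gene of YAP, had 189 ± 7.2 CPM in W20_VEH, 240 ± 8.75 in W20_PTH, 147 ± 4.64 in Y428F_VEH and 171 ± 2.66 in Y428F_PTH. By edgeR's test it rose with PTH in WT cells (log2 fold change 0.35, SE 0.052, adjusted p = 0.000105) and in Y428F cells (0.22, SE 0.053, adjusted p = 0.00739). The difference in response (-0.12, SE 0.075, adjusted p = 0.811) was not called, whereas the study describes the rise as blunted in mutant cells. Whether reads of introduced YAP enter these values was not tested.

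*Klf6*, an activator induced in wounded and activated mesenchymal cells, had the highest level per length in all 4 groups, 19.4 ± 0.24 CPM per kb in W20_VEH, 21.0 ± 0.41 in W20_PTH, 21.0 ± 0.99 in Y428F_VEH and 20.9 ± 0.83 in Y428F_PTH. In W20_VEH it was followed by *Klf2* (14.2 ± 0.59 CPM per kb), *Klf4* (12.0 ± 0.78), *Klf13* (7.36 ± 0.69), *Klf3* (4.95 ± 0.087), *Klf10* (4.18 ± 0.57), *Klf9* (4.11 ± 0.41), *Klf5* (2.59 ± 0.33) and *Klf7* (2.02 ± 0.078). The libraries of *Klf10* and *Klf9* overlapped in this order and those of the other neighbours did not. With PTH the order shifted. *Klf2* stood below *Klf4* and *Klf13* in W20_PTH, at 9.24 ± 0.071 CPM per kb against 13.4 ± 0.84 and 13.2 ± 0.88, and *Klf4* and *Klf13* overlapped. *Klf7* was the lowest of the 9 in W20_PTH (1.32 ± 0.18 CPM per kb) and Y428F_PTH (1.43 ± 0.16), and *Klf5* in Y428F_VEH (1.98 ± 0.21). *Klf15*, which is induced by glucocorticoids in many tissues, had 0 counts in the 3 W20_VEH libraries, which allows up to 0.054 CPM over the group (3 counts, counting error only), and 1 count in each of the other groups. With the longest transcript as the length, *Klf3* (9.00 ± 0.16 CPM per kb) stood above *Klf13* (8.66 ± 0.81) in W20_VEH, at ranks 4 and 5. In W20_PTH *Klf3* then moved from rank 8 to 5 and *Klf9* from rank 5 to 8, while *Klf6* stayed first in each group.

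**Figure D2:**
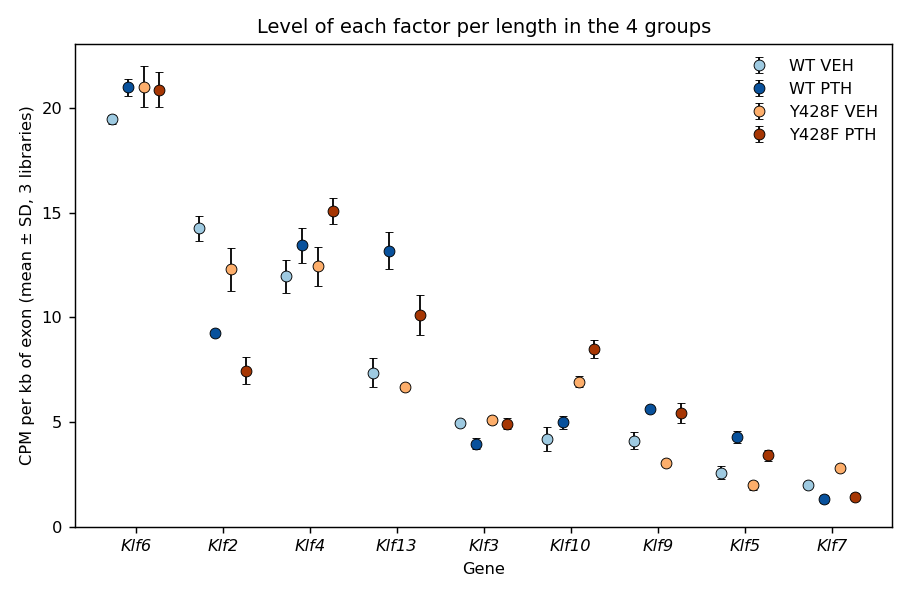
Level of 9 Krüppel-like factor genes in CPM per kb of merged exon (y axis), mean ± SD over the 3 libraries of each group, with genes ordered along the x axis by their level in W20_VEH. *Klf6* lies near 20 CPM per kb in every group, and *Klf2* lies above *Klf13* with vehicle and below it with PTH in both lines.

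The first question was how the KLF genes of WT cells respond to PTH. With PTH, *Klf5*, *Klf9* and *Klf13* rose and *Klf2*, *Klf3* and *Klf7* fell in WT cells, 3 of 9 in each direction, and *Klf4*, *Klf6* and *Klf10* did not pass the test. A gene is called here at an adjusted p under 0.05 by edgeR's quasi-likelihood test, with p-values adjusted by the Benjamini-Hochberg method over all 17691 genes. In this comparison 7.42% of all genes tested were called higher and 6.01% lower. Among the 9104 genes that averaged 10 CPM or more, a range that holds all 9 members, 13.3% were called higher and 8.71% lower. The median log2 fold change was 0.17 over the 9 members and -0.019 over all genes. Because the members were chosen with earlier results known, these values do not test the family. Of 10 other KLF and Sp genes tested, 1 was called in this comparison. When libraries were scaled by their totals alone, the split over all genes moved from 1312 higher and 1063 lower to 956 higher and 1608 lower, but the 6 calls among the members held. In bulk RNA, fewer cells with a transcript and less of it per cell cannot be told apart.

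Among the Sin3-binding members, *Klf13*, a factor of lymphocyte and heart gene control, showed the largest change. It had 49.6, 57.0 and 59.6 CPM in the W20_VEH libraries and 101, 105 and 92.1 CPM in the W20_PTH libraries. Every PTH library lay above every vehicle library, and the log2 fold change was 0.84 (SE 0.076, adjusted p = 1.42e-07, a 1.79-fold rise). *Klf9*, a target of the glucocorticoid and thyroid hormone receptors, had 29.9, 36.3 and 35.0 CPM with vehicle and 46.6, 46.1 and 45.5 CPM with PTH. The PTH libraries were tightly grouped above the vehicle libraries, with a log2 fold change of 0.45 (SE 0.081, adjusted p = 0.000657). *Klf10*, known as the early TGF-β-inducible gene, had 14.8, 18.7 and 19.2 CPM with vehicle and 19.5, 22.1 and 21.2 CPM with PTH, without overlap but with an adjusted p = 0.0894 (log2 fold change 0.25, SE 0.096).

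Among the activators, *Klf5*, a growth-promoting factor that acts early in adipocyte and smooth muscle differentiation, had 11.7, 15.2 and 13.8 CPM with vehicle and 23.0, 23.8 and 20.8 CPM with PTH. The PTH libraries were all higher, and the log2 fold change was 0.73 (SE 0.11, adjusted p = 6.67e-05, a 1.66-fold rise). *Klf2*, a factor of endothelial and T cell quiescence, went the other way, from 29.1, 30.6 and 31.6 CPM to 19.9, 19.7 and 19.6 CPM. The groups were far apart, and the log2 fold change was -0.63 (SE 0.086, adjusted p = 3.65e-05, 0.648-fold of vehicle). *Klf7*, known for its role in neuron development and as an inhibitor of adipocyte differentiation, had 17.1, 17.7 and 16.4 CPM with vehicle and 9.49, 11.9 and 12.2 CPM with PTH. Its groups did not overlap, with a log2 fold change of -0.61 (SE 0.11, adjusted p = 0.000508). *Klf4*, one of the pluripotency factors, had 35.5, 40.4 and 37.1 CPM with vehicle and 43.1, 44.5 and 39.4 CPM with PTH, which overlapped (log2 fold change 0.17, SE 0.075, adjusted p = 0.163). *Klf6* had 86.8, 88.0 and 85.9 CPM with vehicle and 92.4, 95.8 and 92.9 CPM with PTH, close but without overlap, and its log2 fold change of 0.11 had a 95% interval from -0.0057 to 0.22 (adjusted p = 0.225).

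The CtBP-binding repressor *Klf3* had 73.4, 75.7 and 73.5 CPM with vehicle and 60.9, 62.5 and 55.1 CPM with PTH. All PTH libraries were below the vehicle libraries, and the log2 fold change was -0.32 (SE 0.062, adjusted p = 0.00135).

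**Figure D3:**
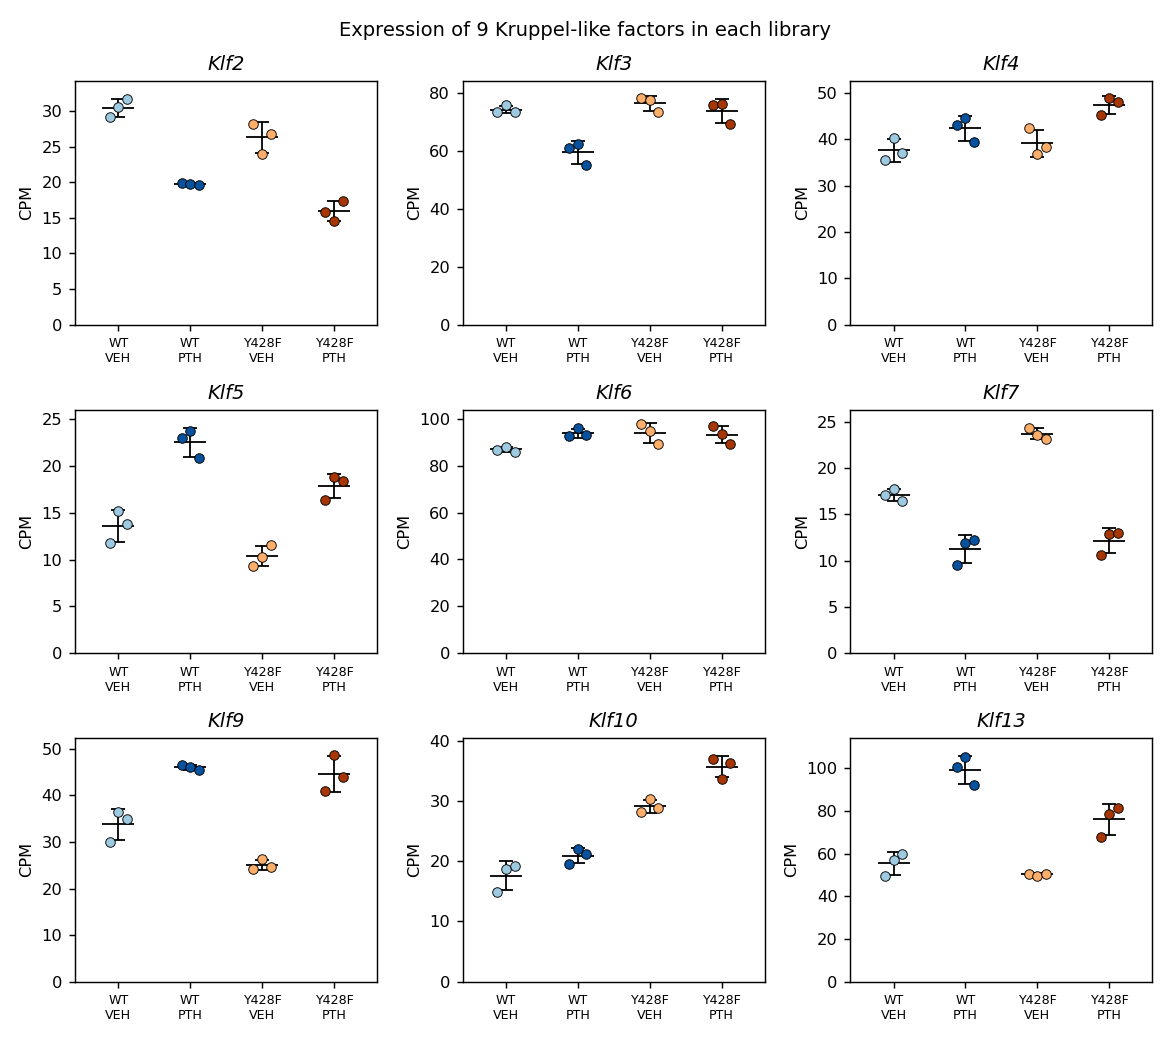
CPM (y axes, each from 0) of 9 Krüppel-like factor genes in every library of the 4 groups. Points are libraries, and bars show the mean ± SD of 3. *Klf5*, *Klf9* and *Klf13* are higher and *Klf2* and *Klf7* lower with PTH in both lines, whereas *Klf3* is lower with PTH only among the WT libraries, a difference between the lines that was not called.

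The same question was asked of Y428F cells. With PTH, *Klf4*, *Klf5*, *Klf9*, *Klf10* and *Klf13* rose and *Klf2* and *Klf7* fell, 5 and 2 of 9. Over all genes tested, 6.61% were called higher and 5.78% lower, and among the 9104 better expressed genes 12.0% and 8.47%. The median log2 fold change was 0.28 over the members and -0.0067 over all genes. With library totals as the only scaling, the split over all genes moved from 1170 higher and 1022 lower to 888 higher and 1445 lower, and *Klf10* was then not called (adjusted p = 0.0639), nor was it with a correction for GC content (0.0649). *Klf5*, *Klf9* and *Klf13* were called higher and *Klf2* and *Klf7* lower in both lines.

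*Klf13* had 50.6, 49.6 and 50.5 CPM in the Y428F_VEH libraries and 68.0, 78.6 and 81.5 CPM in the Y428F_PTH libraries, all above vehicle (log2 fold change 0.60, SE 0.077, adjusted p = 2.25e-05). *Klf9* had 24.2, 26.4 and 24.7 CPM with vehicle and 40.9, 48.6 and 44.0 CPM with PTH, again well apart (log2 fold change 0.83, SE 0.082, adjusted p = 9.62e-07, a 1.77-fold rise). *Klf10* had 28.2, 30.2 and 28.8 CPM with vehicle and 37.0, 33.7 and 36.2 CPM with PTH. Its groups did not overlap, but the log2 fold change of 0.29 (SE 0.088, adjusted p = 0.0333) was not called without Y428F_VEH replicate 1, 2 or 3 or Y428F_PTH replicate 1 or 3, with an adjusted p of up to 0.114.

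*Klf5* had 9.37, 10.3 and 11.5 CPM with vehicle and 16.4, 18.8 and 18.5 CPM with PTH, without overlap (log2 fold change 0.78, SE 0.11, adjusted p = 5.79e-05). *Klf2* fell from 28.2, 23.9 and 26.7 CPM to 15.8, 14.6 and 17.4 CPM, a log2 fold change of -0.72 (SE 0.088, adjusted p = 1.19e-05). *Klf7* fell from 24.3, 23.6 and 23.2 CPM to 10.6, 12.9 and 13.0 CPM. Its PTH libraries were all far below vehicle, and its log2 fold change of -0.96 (SE 0.10, adjusted p = 2.23e-06, 0.513-fold of vehicle) was the largest in size of any member and comparison. *Klf4* had 42.4, 36.8 and 38.3 CPM with vehicle and 45.3, 49.0 and 48.1 CPM with PTH, without overlap (log2 fold change 0.28, SE 0.074, adjusted p = 0.0169). This call was lost without Y428F_VEH replicate 2 or 3 or Y428F_PTH replicate 2 or 3, with an adjusted p of up to 0.0994. *Klf6* (log2 fold change -0.011, 95% interval -0.12 to 0.10) and *Klf3* (-0.050, 95% interval -0.18 to 0.077) had overlapping groups and were not called.

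**Figure D4:**
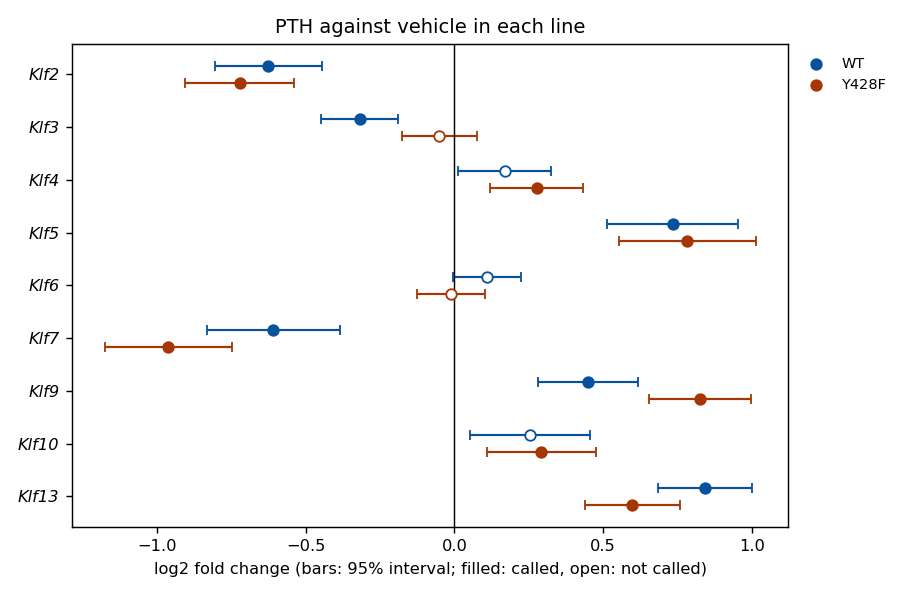
log2 fold change of 9 Krüppel-like factor genes with PTH against vehicle (x axis) in WT cells and in Y428F cells, from edgeR with 3 libraries per group. Bars are 95% intervals, and filled points are called at an adjusted p under 0.05. *Klf5*, *Klf9* and *Klf13* lie to the right and *Klf2* and *Klf7* to the left of 0 in both lines.

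Whether the response itself differed between the lines was tested by subtracting the WT change from that in Y428F. None of the 9 members was called by edgeR's quasi-likelihood test or by DESeq2's Wald test, where 0.413% of all genes were called in either direction. At an unadjusted p under 0.05, edgeR's test gave 4 of the members, *Klf3*, *Klf7*, *Klf9* and *Klf13*, and 1247 of all genes. *Klf9* had the lowest p, with a difference of 0.38 on the log2 scale (95% interval 0.14 to 0.62, adjusted p = 0.309). For *Klf3* the difference was 0.27 (0.087 to 0.45, adjusted p = 0.376), for *Klf7* -0.35 (-0.66 to -0.046, adjusted p = 0.626) and for *Klf13* -0.24 (-0.47 to -0.019, adjusted p = 0.66). The intervals of *Klf2* (-0.35 to 0.16), *Klf4* (-0.11 to 0.33), *Klf5* (-0.27 to 0.37), *Klf6* (-0.28 to 0.042) and *Klf10* (-0.23 to 0.31) included 0. A call in a single line, as for *Klf3*, *Klf4* and *Klf10*, is therefore not shown to be a difference between the lines.

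The next comparison was of the lines themselves. With vehicle, *Klf7* and *Klf10* were higher and *Klf2*, *Klf5* and *Klf9* lower in Y428F than in WT cells, 2 and 3 of 9. These shares were close to the background, since 22.4% of all genes tested were called higher and 22.7% lower, and 30.4% and 33.0% of the 9104 better expressed genes. The comparison with vehicle and the responses to PTH share their vehicle libraries. The members' median log2 fold change was 0.041 and that of all genes 0.012. Stromal markers differed between the lines in the same libraries, with 9 of the 12 tested lower and 2 higher in Y428F_VEH and sums of 27563 CPM in W20_VEH and 19144 in Y428F_VEH. Of 7 hematopoietic markers tested, 4 were higher in Y428F_VEH and none lower. *Cd14* was 6.09 ± 0.41 CPM in W20_VEH and 11.0 ± 0.26 in Y428F_VEH, *Lyz2* 0.503 ± 0.25 and 3.04 ± 0.33, *Ptprc* 0.853 ± 0.14 and 2.79 ± 0.28, and *Spi1* 0.019 ± 0.033 and 0.937 ± 0.30. Of 6 endothelial markers, 2 were higher, among them *Cdh5* (0.810 ± 0.28 and 7.95 ± 0.87 CPM), and *Vwf* was lower. The part of these markers in the KLF differences was not tested.

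*Klf10* differed the most. Its 3 Y428F_VEH libraries, at 28.2 to 30.2 CPM, were all above the WT vehicle libraries, at 14.8 to 19.2 CPM (log2 fold change 0.73, SE 0.093, adjusted p = 1.49e-06, 1.66-fold). *Klf10* lies on chromosome 15 at 38291703 to 38300959 (GRCm39), and over the 434 genes on that chromosome that averaged 4 CPM or more the median was 0.20, and 72.1% of them were higher in Y428F_VEH. The part of this shift in the *Klf10* value was not tested. *Klf7* was 17.1 ± 0.66 CPM in W20_VEH and 23.7 ± 0.59 in Y428F_VEH (log2 fold change 0.47, SE 0.099, adjusted p = 0.000513). *Klf9* was 33.8 ± 3.39 and 25.1 ± 1.15 CPM (log2 fold change -0.43, SE 0.083, adjusted p = 0.000242), whereas the median gene of its chromosome 19 was at 0.12. *Klf5* was 13.6 ± 1.73 and 10.4 ± 1.08 CPM (log2 fold change -0.38, SE 0.11, adjusted p = 0.00796), without overlap between the groups. *Klf2* was 30.4 ± 1.27 and 26.3 ± 2.18 CPM (log2 fold change -0.21, SE 0.083, adjusted p = 0.0430). The median gene of its chromosome 8 was at -0.13, with 35.3% of 589 genes higher in Y428F_VEH, and the part of this shift in the *Klf2* value was not tested. The *Klf2* call did not hold with a correction for GC content, which gave -0.070 (adjusted p = 0.506), with DESeq2's Wald test (adjusted p = 0.0709), with no filter on low counts (0.0720), with DESeq2's size factors (0.0519), with library totals (0.133), or without W20_VEH replicate 2 or 3, W20_PTH replicate 1 or Y428F_VEH replicate 2 or 3, where the adjusted p reached 0.199. *Klf3*, *Klf4*, *Klf6* and *Klf13* were not called, with log2 fold changes of 0.041, 0.056, 0.11 and -0.14. *Klf6* was called higher when scaled by library totals (0.17, adjusted p = 0.0155), tested with the filter of 10 counts in every library (0.0492) or corrected for exon length (0.0486), and *Klf13* lower without W20_VEH replicate 1 (-0.22, adjusted p = 0.0240).

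With PTH present in both lines, *Klf3* and *Klf10* were higher and *Klf2*, *Klf5* and *Klf13* lower in Y428F cells, again 2 and 3 of 9. Over all genes tested, 22.8% were called higher and 23.0% lower. The members' median log2 fold change was -0.0074 and that of all genes 0.019. *Klf10* reached 35.6 ± 1.74 CPM against 20.9 ± 1.3 in WT cells (log2 fold change 0.77, SE 0.091, adjusted p = 5.70e-07), and chromosome 15 had a median of 0.23. *Klf3* was 73.7 ± 4.02 CPM against 59.5 ± 3.9 (log2 fold change 0.31, SE 0.062, adjusted p = 0.000313). *Klf13* was 76.1 ± 7.13 CPM against 99.3 ± 6.65 (log2 fold change -0.38, SE 0.075, adjusted p = 0.000224). All 3 of these genes had groups without overlap. *Klf5* was 17.9 ± 1.32 CPM against 22.5 ± 1.53 (log2 fold change -0.33, SE 0.10, adjusted p = 0.0115), a call lost without W20_PTH replicate 2 (adjusted p = 0.0543). *Klf2* was 15.9 ± 1.38 CPM against 19.7 ± 0.15 (log2 fold change -0.31, SE 0.090, adjusted p = 0.00776), and with a correction for GC content it was -0.16 and not called (adjusted p = 0.125), and the median of chromosome 8 was -0.12. *Klf7* and *Klf9*, which differed between the lines with vehicle, had log2 fold changes of 0.12 (95% interval -0.11 to 0.34) and -0.049 (-0.21 to 0.12) with PTH, with overlapping groups. *Klf4* (0.16, adjusted p = 0.0797) and *Klf6* (-0.0074) were not called. With a correction for GC content, *Klf4* was 0.24 and called (adjusted p = 0.00835), as it was with library totals (0.0120) and with the filter of 10 counts in every library (0.0382). In these libraries too 9 stromal markers were lower and 2 higher in Y428F cells (sums of 28162 CPM in W20_PTH and 17530 in Y428F_PTH), the same 4 hematopoietic markers were higher, and *Cdh5* was higher and *Vwf* lower, and their part in the KLF values was not tested.

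**Figure D5:**
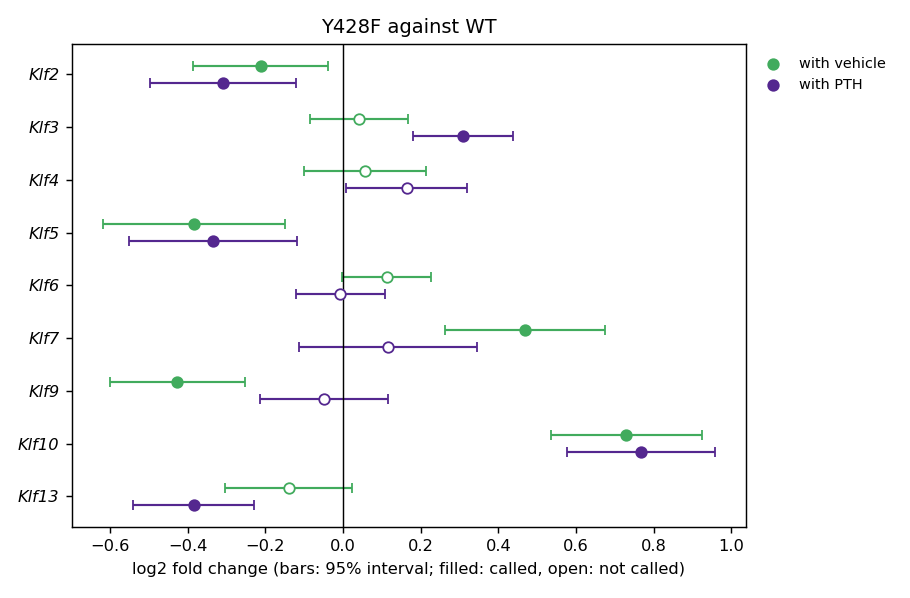
log2 fold change of 9 Krüppel-like factor genes in Y428F against WT cells (x axis), with vehicle and with PTH, from edgeR with 3 libraries per group. Bars are 95% intervals, and filled points are called at an adjusted p under 0.05. *Klf10* lies furthest from 0 in both comparisons, and *Klf7* and *Klf9* are called with vehicle and not with PTH.

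Lists of genes around the KLFs were counted in the same comparisons. Their counts stand beside the shares of all genes called, which were 7.42% higher and 6.01% lower with PTH in WT cells, and 6.61% and 5.78% with PTH in Y428F cells. For Y428F against WT cells they were 22.4% and 22.7% with vehicle (30.4% and 33.0% of genes that averaged 10 CPM or more), and 22.8% and 23.0% (30.8% and 33.3%) under PTH. Counts near these shares are no result about a list.

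Among 17 other KLF and Sp genes, which share the zinc finger domain, 10 were tested. *Klf16*, a Sin3-binding relative of *Klf9* and *Klf13*, was the only one called with PTH in WT cells, rising from 32.3 ± 1.74 to 57.0 ± 5.66 CPM (log2 fold change 0.82, SE 0.075, adjusted p = 1.54e-07). It rose from 42.1 ± 2.12 to 70.5 ± 2.35 CPM in Y428F cells (log2 fold change 0.75, adjusted p = 7.10e-07), where *Sp3* rose by 0.20 as well, a call lost with library totals, with a GC correction or without 1 of 4 Y428F libraries (adjusted p up to 0.138). Between the lines with vehicle, 4 were higher and 2 lower. *Klf8*, a CtBP-binding relative of *Klf3*, had 0 counts in all 6 WT libraries and 58 counts over Y428F_VEH, at least 19.7-fold higher against the level of 3 counts over the group. *Klf11*, a TGF-β-inducible relative of *Klf10*, was lower in Y428F cells (log2 fold change -0.69, adjusted p = 1.17e-06), from 18.9 ± 0.67 to 11.7 ± 0.5 CPM. *Klf16* (0.38) and *Sp2* (0.34) were higher. With PTH 3 were higher and 3 lower in Y428F cells. *Klf8* was at least 22.8-fold higher, *Sp2* was higher by 0.39, *Klf11* was at -0.83 and *Sp4* at -0.37, a call lost under 9 of the alternatives (adjusted p up to 0.196).

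Cofactors of KLFs were called with PTH at a share near that of all genes. Of 15 genes of corepressors, coactivators, ubiquitin ligases and other proteins known to bind KLFs, *Smurf1* and *Fhl3* rose in WT cells by 0.32 and 0.20 on the log2 scale, and in Y428F cells *Smurf1* rose by 0.31 and *Sin3a*, the scaffold of the Sin3 complex, fell by 0.25. The call of *Fhl3* was lost under 9 of the alternatives, among them the replicate block (adjusted p up to 0.211), and that of *Smurf1* without W20_PTH replicate 1 in WT cells (0.0654) and without Y428F_VEH replicate 1 or Y428F_PTH replicate 2 in Y428F cells (up to 0.0560). Between the lines with vehicle, 4 were higher and 3 lower, which is near the share of all genes, with *Kat2b* (-0.59), *Hdac3* (-0.56), *Hdac2* (0.54) and the KLF ubiquitin ligase *Wwp1* (0.54) the most changed. With PTH 5 were higher and 3 lower, led by *Kat2b* (-0.69), *Wwp1* (0.59), *Hdac3* (-0.57) and *Hdac2* (0.48).

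Of 18 kinases and factors known to switch on KLF genes, 17 were tested. *Srf*, serum response factor, *Smad2*, *Nr3c1* (the glucocorticoid receptor) and *Mef2a* rose with PTH in WT cells and none fell. *Srf* rose from 74.3 ± 7.51 to 235 ± 12.1 CPM in WT cells (log2 fold change 1.66, SE 0.068, adjusted p = 1.08e-12) and from 78.1 ± 1.71 to 182 ± 8.63 CPM in Y428F cells (1.22, SE 0.067, adjusted p = 2.49e-10). The difference in response was -0.44 (SE 0.095, adjusted p = 0.0456) and was not called when any of 8 single libraries was left out (adjusted p up to 0.194). In Y428F cells *Nr3c1* (0.29), *Smad2* (0.24) and *Smad4* (0.19) rose as well, and *Smad3* fell by 0.25, not called without Y428F_VEH replicate 1 or Y428F_PTH replicate 1 (adjusted p up to 0.0718). The call of *Smad4* was lost with library totals, with a GC correction, with that correction and the replicate block, or without 1 of 4 Y428F libraries (adjusted p up to 0.101). Between the lines with vehicle 10 were lower and 2 higher in Y428F, with a median of -0.37 beside 0.012 over all genes. They include *Thra*, the thyroid hormone receptor α (-0.83), *Mef2a* (-0.70), and *Nr3c2*, the mineralocorticoid receptor, with 69 counts over W20_VEH and 0 over Y428F_VEH, at least 22.6-fold lower. *Mef2c* had 0 counts in the WT libraries and 7 over Y428F_VEH, a difference that was not called with the replicate block, with no filter on low counts, by DESeq2's Wald test or when any of 6 single libraries was left out (adjusted p up to 0.118). With PTH 12 were lower and 3 higher in Y428F cells. *Mef2c* had 0 counts over W20_PTH and 12 over Y428F_PTH, a call lost without Y428F_PTH replicate 1 (adjusted p = 0.0557), and *Nr3c2* had 12 to 19 counts per library in W20_PTH and 0 to 2 in Y428F_PTH. *Thra* was at -0.89 and *Smad3* at -0.79.

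Of 16 genes known as KLF targets, 13 were tested, and 6 rose and 2 fell with PTH in WT cells. *Tagln*, a smooth muscle actin-binding protein, rose by 1.81 (SE 0.080, adjusted p = 2.43e-12) and *Tgfbr1* by 0.48, while *Cdkn1a*, the cell cycle inhibitor p21, fell by 0.67 on the log2 scale. In Y428F cells 6 rose and 3 fell, among them *Tagln* (1.26), *Smad7* (0.70) and *S1pr1* (-0.35), a *Klf2* target in lymphocytes. The response of *Tagln* was lower in Y428F cells by 0.55 (SE 0.11, adjusted p = 0.0289), which was not called when any of 9 single libraries was left out (up to 0.126), and *S1pr1* in Y428F cells was not called without Y428F_PTH replicate 1 (0.0589). With vehicle 4 were higher and 6 lower in Y428F, among them *S1pr1* (-1.40), *Ccnd1* (0.93) and *Eng* (-0.75). With PTH 3 were higher and 5 lower, among them *S1pr1* (-1.77), *Tagln* (-1.01) and *Ccnd1* (0.92). Several of these genes are targets of other factors too, so the list is not a readout of any KLF.

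Among 9 adipogenic factors placed up- or downstream of KLFs, 8 were tested. *Pparg*, the master regulator of adipocytes, rose with PTH by 0.51 (SE 0.073, adjusted p = 5.40e-05) in WT cells and by 0.71 (SE 0.070, adjusted p = 9.62e-07) in Y428F cells, and *Gata3*, which restrains adipogenesis, fell by 0.60 in WT cells. In its differentiation assays the study reports that PTH reduced Oil Red O staining and *Adipoq* expression of W-20 cells. The values here are RNA levels after 2 hours, and adipocyte differentiation was not measured in these libraries. *Egr2* rose by 2.29 (SE 0.30, adjusted p = 3.17e-05) in Y428F cells, from a low level of 0.675 ± 0.084 CPM to 3.34 ± 0.34 CPM. With vehicle 5 of the 8 were lower in Y428F cells and 2 higher, led by *Egr2* (-2.52), *Cebpa* (-2.24), *Fabp4* (-2.03) and *Gata3* (-1.04). With PTH 5 were lower and 3 higher, led by *Cebpa* (-2.14), *Fabp4* (-1.62), *Cebpd* (-0.96) and *Gata2* (0.87), whose call was lost without W20_PTH replicate 2 or Y428F_PTH replicate 2 or 3 (adjusted p up to 0.114).

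*Klf9* and *Klf15* are classed with the genes that glucocorticoids induce. Of 10 other such genes 9 were tested, and with PTH in WT cells *Sgk1*, a kinase of ion transport (1.84, SE 0.10, adjusted p = 1.05e-10), *Mt2* (0.67), *Mt1* (0.26) and *Dusp1* (0.23) rose and *Errfi1* fell by 0.45. Left-out libraries or other settings ended the calls of *Mt2* (W20_VEH replicate 1 or 3 or W20_PTH replicate 1, adjusted p up to 0.118), *Dusp1* (W20_VEH replicate 2 or W20_PTH replicate 1, up to 0.0758) and *Errfi1* (W20_VEH or W20_PTH replicate 2 or 3, DESeq2's Wald test and the fit of the 2 groups alone, up to 0.153). In Y428F cells *Sgk1* (1.55), *Dusp1* (0.52) and *Mt1* (0.45) rose and *Tsc22d3* fell by 0.28, a call lost with a GC correction or without 1 of 5 Y428F libraries (up to 0.125). With vehicle 7 of 9 were lower in Y428F cells, where 22.7% of all genes and 33.0% of the better expressed genes were, led by *Mt2* (-2.66), *Errfi1* (-1.96) and *Dusp1* (-0.81), while *Fkbp5* was higher (1.00). With PTH 7 were lower and *Fkbp5* higher (0.96), led by *Mt2* (-2.73), *Errfi1* (-1.56) and *Cebpd*. *Klf2*, *Klf4*, *Klf6* and *Klf10* are classed with immediate early genes. Of 16 others 6 rose and 2 fell with PTH in WT cells, with *Srf*, *Ccn1* (1.07), *Fosb* (0.87, not called in the fit of the 2 groups alone or without W20_VEH replicate 2 or 3 or W20_PTH replicate 1 or 2, adjusted p up to 0.251) and *Maff* (0.85) the most changed, and 9 rose and 1 fell in Y428F cells, led by *Egr2*, *Maff* (1.60), *Srf* and *Nr4a1* (1.04). Between the lines with vehicle 5 were higher and 5 lower in Y428F cells, led by *Egr2* (-2.52), *Egr1* (-1.25), *Nr4a1* (-1.22) and *Myc* (0.55), and with PTH 5 were higher and 6 lower, led by *Ier3* (1.35), *Egr3* (-1.14), *Maff* (0.95) and *Nr4a1* (-0.95).

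The genes whose levels followed a member most closely over the 12 libraries were sought for *Klf13*, the member with the smallest p for PTH in WT cells, and for *Klf10*, that with the smallest p for the lines with vehicle. Among 10180 genes that averaged 5 CPM or more, the highest Pearson correlations of log2 CPM with *Klf13* were those of *Ncs1* (0.987), *Vcl* (0.981), which encodes the adhesion protein vinculin, and *Mob3a* (0.980). *Vcl* had means of 370 CPM in W20_VEH, 951 in W20_PTH, 280 in Y428F_VEH and 536 in Y428F_PTH, and thus a wider range than *Klf13*. *Klf10* was followed by *Bcl2l1* (0.977), the survival factor Bcl-xL, *Plpp2* (0.974) and *Nln* (0.974). *Bcl2l1* had means of 26.6, 31.2, 46.0 and 56.9 CPM in the same order. The 12 points share their libraries, groups and scaling, so these values are descriptions and carry no test.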

How the data were processed

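RNA-Seq was made by the authors from poly-A RNA of 12 libraries. Per the labels and the study's methods, the authors mapped reads with STAR 2.7.10b to GRCm39 (GENCODE basic genes), and the deposited values are RSEM expected counts per gene, unscaled. Whether strand was used in counting was not settled from the sources used here. Groups were taken from the library titles. Identifiers were matched to GENCODE vM39 (56236 matched, 744 not). The members and gene lists were chosen with earlier results of these data known, and the lists come from general knowledge.

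Rounded expected counts entered edgeR 4.0.16 in R 4.3.3 (TMM, quasi-likelihood test, all 12 libraries in 4 groups, genes totalling 10 counts or more), with Benjamini-Hochberg adjustment. The SE of a log2 fold change was its size over the square root of F. In all, 5 contrasts were tested. Named list genes were those called with the largest changes, at most 4 per list (cell type markers aside) and comparison or all where 5 or fewer were called; 1 gene of the KLF target list was counted with the list but is not reported here. Level per kb used merged exons. Replicate libraries varied beyond counting noise. The test was tried on simulated counts, with changed genes drawn from a wider range of levels than the members. For PTH in WT cells it called 93% of 2-fold and 27% of 1.25-fold changes. For the difference in response it called 91.5% and 1%. Alternatives were DESeq2 1.42.0, other scalings and filters, the replicate block, GC and exon length corrections, the 2 groups alone, stricter limits and each library left out. For list genes they were added after seeing the data.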

Additional observations from a re-analysis of the deposited data

Results flagged for a closer look

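No KLF member was flagged. Among the related genes named, 6 differed in their response to PTH between the lines by edgeR's quasi-likelihood test of the difference itself (change in Y428F cells minus change in WT cells, log2 scale). The response was larger in Y428F cells for *Egr2* (1.89, adjusted p = 0.0289), *Ier3* (0.91, adjusted p = 0.0169), *Maff* (0.75, adjusted p = 0.00187) and *Junb* (0.69, adjusted p = 0.0215). It was smaller for *Tagln* (-0.55, adjusted p = 0.0289) and *Srf* (-0.44, adjusted p = 0.0456). *Maff* was called under every alternative, and the other 5 were each lost without any of several single libraries, with an adjusted p of up to 0.117 for *Egr2*, 0.0621 for *Ier3*, 0.0794 for *Junb*, 0.126 for *Tagln* and 0.194 for *Srf*.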

How the results depend on the processing

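The number of members called stayed within 1.5 times its main value under every alternative. With single libraries left out it was 6 for PTH in WT cells, 5 to 7 for PTH in Y428F cells, 4 to 6 between the lines with vehicle, 4 to 5 with PTH and 0 for the difference in response. The fit with the replicate block gave 6, 7, 5, 5 and 0 members, as the main fit did, and changed no member's call. Same-numbered libraries of different groups did not deviate together on average (mean r = 0.0022 over 18 pairs, range -0.15 to 0.24). With 3 libraries per group this cannot exclude a small shared effect, so whether the numbers pair the libraries is not known. Directions turned for values that were not called. For *Klf6* with PTH in Y428F cells the exon length correction gave 0.011 and left-out libraries -0.046 to 0.023. For *Klf6* between the lines with PTH the library totals gave 0.060, the filter of 10 counts in every library 0.0075, exon length 0.016 and left-out libraries -0.047 to 0.016. For *Klf9* in that comparison library totals gave 0.018. For *Klf3* with vehicle the GC correction gave -0.017, and -0.018 with the replicate block. Left-out libraries gave -0.012 to 0.10 for *Klf4* with vehicle, and for the difference in response -0.043 to 0.14 for *Klf5* and -0.025 to 0.14 for *Klf10*. The causes were not tested. Of 102 calls of list genes under the naming rule, 81 held in every alternative run and 21 were lost in at least 1. A 3-library design leaves differences as wide as the intervals given undetected, and *Klf15* and *Pth1r* are limited by depth.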
